A study of Mus musculus with 12 samples.

Results

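The genes described here are the glutathione and Nrf2 defence genes of adult mouse neural stem cells, the enzymes that remove peroxides, superoxide and reactive electrophiles, with the transcription factor that is known for switching many of them on. They were chosen by gene symbol alone: glutathione transferases (Gst of classes a, k, m, o, p and t, and Mgst), glutathione peroxidases (Gpx), peroxiredoxins (Prdx), thioredoxins and their reductases (Txn, Txnrd), superoxide dismutases (Sod), Gclc, Gclm, Gss, Gsr, Nqo1, Hmox1, Cat, Srxn1, Nfe2l2 and Keap1. The count table held 54 such genes among its 17365 rows. RNA-seq was made from 12 libraries of 2 adult neural stem cell lines, ANS4 (strain MF1) and BL6 (strain C57BL/6), each a line from the subventricular zone of wild-type mice of 6 to 8 weeks, grown without serum on laminin and used below passage 10. Cells were kept for 3 days at low density in EGF with FGF2 (EGF/FGF, the proliferating state), in BMP4 alone (BMP) or in BMP4 with FGF2 (BMP/FGF), each factor at 10 ng/ml, with 2 biological replicates of each line in each condition. Both BMP media lacked EGF and the BMP medium lacked FGF2 as well, so the presence of BMP4 and the absence of these factors cannot be told apart in the comparisons with EGF/FGF, and a line cannot be told apart from its strain, since each strain gave 1 line. The study asked how quiescent neural stem cells in BMP and in BMP/FGF, taken as 2 depths of quiescence, differ from cycling cells and from each other.

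Glutathione is a small peptide that reduces peroxides and is coupled to toxic compounds by the transferases, while the thioredoxin system and the peroxiredoxins do related work through protein thiols. NRF2, the protein of Nfe2l2, is held low by KEAP1, which hands it to an ubiquitin ligase. When KEAP1 is modified by oxidants or electrophiles, NRF2 enters the nucleus, pairs with small MAF proteins and binds antioxidant response elements, short DNA motifs near genes for glutathione synthesis, quinone reduction and thioredoxin reduction. In the brain, astrocytes are known for high glutathione and for PRDX6, and neural stem cells share much of the astrocyte programme.

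Total counts lay between 18069052 and 19451818 per library, so that 1 count was worth 0.0514 to 0.0553 CPM (counts per 1000000 counts of the library, with library sizes scaled by the trimmed mean of M values). Of the 13312 genes with enough counts for a test, 47 were defence genes, and the other 7, Gpx2-ps1, Gsta2, Gsta3, Gstm3, Gstp3, Gstt2 and Mgst2, did not pass that filter. Of these 7, Gsta2 held 0 to 3, 0 to 16 and 5 to 11 counts a library in the order EGF/FGF, BMP, BMP/FGF, Gsta3 held 1 to 3, 5 to 10 and 7 to 18, and Mgst2 held 5 to 14, 0 to 2 and 1 to 7. Gstm3 held 0 to 10 counts in any library, and Gpx2-ps1, Gstp3 and Gstt2 held 0 or 1. All 8 neural stem cell markers were present in every condition, and their mean levels moved both ways from EGF/FGF to BMP and BMP/FGF. Sox2 was at 476, 693 and 672 CPM and Slc1a3 at 1182, 3058 and 3693 CPM in that order, with Vim, Pax6 and Nr2e1 also at higher means in both media, while Nes was at 569, 126 and 116 CPM, Fabp7 at 2410, 476 and 1386 CPM and Olig2 at 598, 275 and 281 CPM. Summed over 6 genes, cycling markers were at 2237 to 2686 CPM in EGF/FGF, 377 to 560 CPM in BMP (means 2471 and 457 CPM) and 272 to 288 CPM in BMP/FGF. The 6 astrocyte markers summed to 1275 to 1528, 3773 to 4842 and 6472 to 6654 CPM in the same order, the 5 neuron markers to 13.1 to 17.9, 302 to 610 and 93.9 to 103 CPM, and the 5 oligodendrocyte markers to 25.4 to 29.8, 155 to 182 and 256 to 266 CPM. Of 4 ependymal markers 3 had a row, and together they reached 52.4 to 70.5 CPM in EGF/FGF, 183 to 217 CPM in BMP and 183 to 192 CPM in BMP/FGF. Microglial markers (5 of 7, Aif1 and C1qa having no row) reached at most 14.7 CPM, endothelial markers (3 of 5) 4.32 CPM and mural and fibroblast markers (4 of 5) 6.42 CPM in any library, and among them Csf1r and Lum were at 0 in all BMP libraries. These marker levels moved with the conditions, and their part in the results below was not tested. In bulk RNA fewer cells of a type and less RNA per cell cannot be told apart.

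The promoter windows show where the motif for NRF2 occurs among these genes. RefSeq windows (GRCm38.p6, 250 bases before to 50 bases after each start) were found for 45 of the 54 genes. Prdx6, Prdx6b, Gclc, Gsr, Hmox1, Gsta4, Gstt2, Sod3 and Gpx2-ps1 had no window and were not searched. The core motif TGACNNNGC, searched on both strands, stood in 10 of the 45 genes (22.2%) and in 14% of all 27025 genes with a window, and the related TGAGNNNGC stood in 9 of 45 (20%) and in 19.8% of all genes. A match is only a run of letters and not a bound site. Capitals mark the matched motif, read on the strand of the gene, so that a match on the other strand appears as its reverse complement. The stretches shown are those of genes that the results turn on, picked with their values known. Those of Gstp1 and Gstp2 are shown too, and their printed stretches are the same. The stretches printed for Srxn1, Gstp1 and Gstp2 show the related motif and the others the core motif, and 1 match is printed per gene. Elsewhere in their windows, Srxn1 holds the core motif and a further related motif, and Gstm5, Prdx1 and Gstp1 hold the related motif.
Mgst1: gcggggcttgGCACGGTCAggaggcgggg
Gclm: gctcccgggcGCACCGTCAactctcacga
Prdx1: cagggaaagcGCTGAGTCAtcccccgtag
Srxn1: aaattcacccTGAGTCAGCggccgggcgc
Txnrd1: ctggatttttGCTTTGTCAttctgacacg
Nfe2l2: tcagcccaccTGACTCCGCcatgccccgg
Gstm5: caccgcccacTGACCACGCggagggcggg
Gstm7: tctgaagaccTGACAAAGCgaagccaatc
Gstp1 and Gstp2: tccaacgtgtTGAGTCAGCatccggggcg
The Mgst1 stretch lies at chr6:138140461-138140489 on the plus strand and that of Gclm at chr3:122245413-122245441 (plus). That of Prdx1 lies at chr4:116685456-116685484 (plus) and that of Srxn1 at chr2:152105469-152105497 (plus). The Txnrd1 stretch lies at chr10:82859104-82859132 (plus), that of Nfe2l2 at chr2:75704885-75704913 (minus), that of Gstm5 at chr3:107895802-107895830 (plus) and that of Gstm7 at chr3:107931725-107931753 (minus). The Gstp1 copy is at chr19:4037968-4037996 and the Gstp2 copy at chr19:4042292-4042320, both minus. Among these 10 genes some rose and some fell in the quiescence media, as given below. In BMP, Mgst1, Gclm, Srxn1 and Nfe2l2 rose, Txnrd1, Gstm7, Gstp1 and Gstp2 fell, and Prdx1 and Gstm5 did not pass the test.

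In BMP against EGF/FGF, 19 of the 47 tested defence genes rose (40.4%, beside 40.8% of all 13312 tested genes) and 15 fell (31.9%, beside 38.8%), at an FDR under 0.05 in edgeR's quasi-likelihood test with Benjamini-Hochberg adjustment over all tested genes. These shares are near the background, so the group as a whole is not set apart by its number of calls. The median log2 fold change of the 47 genes was 0.023, and 0.019 over all tested genes. In BMP/FGF against EGF/FGF, 27 rose (57.4%, beside 40.9%) and 11 fell (23.4%, beside 38.0%), with a median of 0.33 against 0.022 over all genes. In BMP/FGF against BMP, 15 were higher (31.9%, beside 20.1%) and 4 were lower (8.51%, beside 21.3%), with a median of 0.11. Of these 15, 6 are Gstm genes and 1 is the sparse Gsta1, so the 31.9% counts each gene of the Gstm class on its own. With the Gsta, Gstm, Gstp and Gstt classes each summed to a single row 9 were higher. Those 9 are out of fewer rows than 47, and their share beside 20.1% was not computed, so 31.9% is not read as an excess of the group. Both comparisons with EGF/FGF use the same 4 EGF/FGF libraries and are not independent of each other. Past the study's own threshold of 1.5 on the log2 scale were 5 genes in BMP (Prdx6, Mgst1, Prdx6b, Gstm6 and Gstm7), 5 in BMP/FGF (Prdx6, Mgst1, Prdx6b, Gsto2 and Gsta1) and 3 between the media (Gstm1, Gstm6 and Gsta1). The share of all tested genes past that threshold was not counted. The median absolute log2 change of the 47 genes was 0.57 in BMP, 0.55 in BMP/FGF and 0.17 between the media. Over all tested genes it was similar, at 0.61, 0.59 and 0.20. The difference between a share and its background was not tested.

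**Figure D1:**
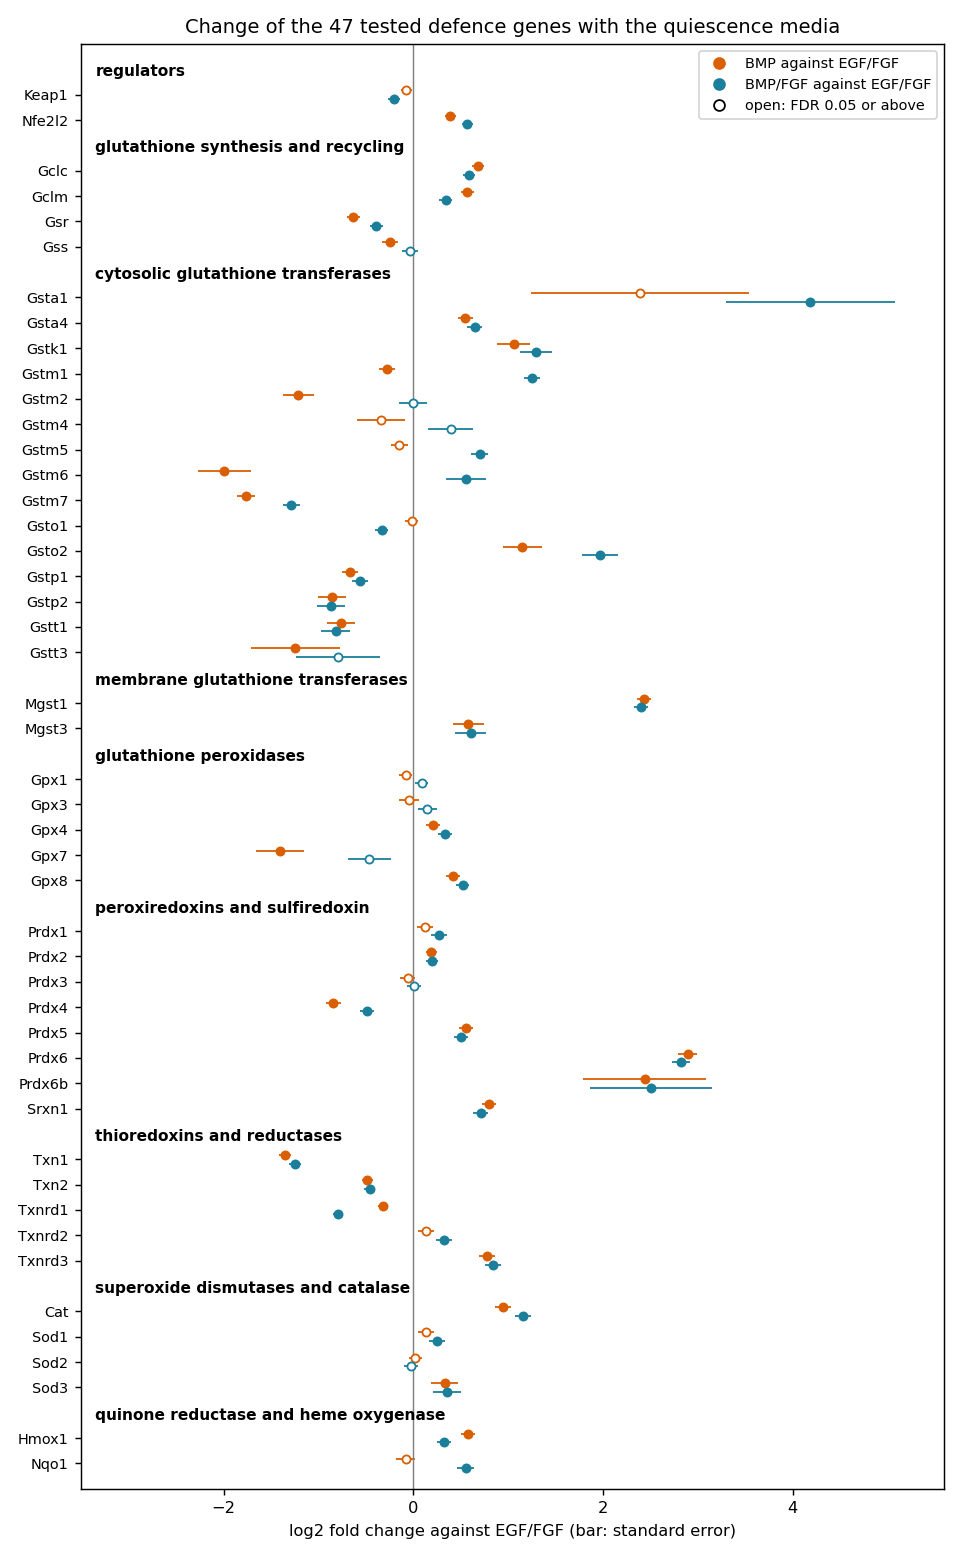
Log2 fold change of each of the 47 tested genes in BMP (orange) and BMP/FGF (blue) against EGF/FGF, with the standard error as bars and genes ordered by role. Prdx6, Mgst1, Prdx6b and the sparse Gsta1 lie beyond 2 to the right in both media, Txn1 and Gstm7 lie beyond 1 to the left in both, and Gstm1 and Gstm6 lie left of 0 in BMP and right of 0 in BMP/FGF; open points did not pass the test.

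The total level of the 54 genes was 5102 ± 253 CPM in EGF/FGF, 8704 ± 1044 CPM in BMP and 9687 ± 116 CPM in BMP/FGF (mean ± SD, n = 4), and all 8 libraries of the quiescence media lay above all 4 of EGF/FGF. Prdx6 alone made up 10.3% ± 0.85 of that total in EGF/FGF, 45.0% ± 3.55 in BMP and 38.2% ± 0.88 in BMP/FGF. Without Prdx6 and Gstm1 the remaining 52 genes summed to 3882 ± 108, 4198 ± 280 and 4351 ± 38.3 CPM. In mean level Prdx6 went from 528 CPM to 3939 CPM in BMP and 3700 CPM in BMP/FGF, and Gstm1 from 693 CPM to 567 and 1636 CPM, so Prdx6 held most of the added RNA in both media and Gstm1 added to it in BMP/FGF alone. Levels can be set between genes only per length. Per kilobase of coding transcript, Gstm1 was first in EGF/FGF at 693 CPM per kb, followed by Gstp1 (336), Prdx1 (319) and Prdx6 (316). In BMP the order opened with Prdx6 at 2354 CPM per kb, then Gstm1 (567), Prdx1 (348) and Gpx4 (333), and in BMP/FGF with Prdx6 at 2211, then Gstm1 (1636), Prdx1 (385) and Gpx4 (362). Mgst1 moved from rank 22 in EGF/FGF to rank 6 in BMP and 7 in BMP/FGF. Txn1 moved the other way, from rank 8 to ranks 20 and 18. The lengths of transcripts used in these cells are not known, and Prdx1 and Gpx4 in BMP/FGF differ by less than the SD of Prdx1 (27.0 CPM per kb).

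The regulator pair moved little and in opposite directions. Throughout, the values of 4 libraries are listed with ANS4 replicates 1 and 2 first and BL6 replicates 1 and 2 after them. Nfe2l2 (chromosome 2) was at 271, 244, 233 and 230.1 CPM in EGF/FGF, 332, 322, 319 and 310.1 CPM in BMP and 353, 362, 381 and 356 CPM in BMP/FGF. The 3 conditions did not overlap, and the order was EGF/FGF, then BMP, then BMP/FGF. The rise was 0.39 ± 0.0595 (SE) in BMP and 0.57 ± 0.0596 (SE) in BMP/FGF on the log2 scale (edgeR FDR = 9.29e-06 and edgeR FDR = 8.43e-08), and BMP/FGF exceeded BMP by 0.18 ± 0.0593 (SE) (edgeR FDR = 0.0215). This last call was lost without ANS4 BMP replicate 2 (FDR = 0.0508), BL6 BMP/FGF replicate 1 (0.109) or BL6 BMP/FGF replicate 2 (0.0599). It was also lost with library sizes alone as the scaling (0.0609) and within ANS4 alone (log2 0.13, FDR = 0.101). Keap1, the adaptor that targets NRF2 for degradation, was at 52.8, 54.1, 49.8 and 48.4 CPM in EGF/FGF, 50.0, 50.8, 46.4 and 48.0 CPM in BMP and 45.3, 43.7, 42.8 and 46.3 CPM in BMP/FGF. BMP/FGF lay below both other conditions in every library, whereas BMP overlapped EGF/FGF. Keap1 fell by 0.20 ± 0.0586 (SE) on the log2 scale in BMP/FGF against EGF/FGF (edgeR FDR = 0.00435), and in BMP the change was -0.071 ± 0.0583 (SE) (edgeR FDR = 0.27). Against BMP it was -0.13 ± 0.0588 (SE) (edgeR FDR = 0.083), which passed without BL6 BMP/FGF replicate 2 (log2 -0.17, FDR = 0.0446) and with library sizes alone (-0.18, FDR = 0.0208). Within BL6 alone the fall against EGF/FGF did not pass (-0.15, FDR = 0.114). NRF2 acts mainly through its protein level, which RNA counts do not measure.

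**Figure D2:**
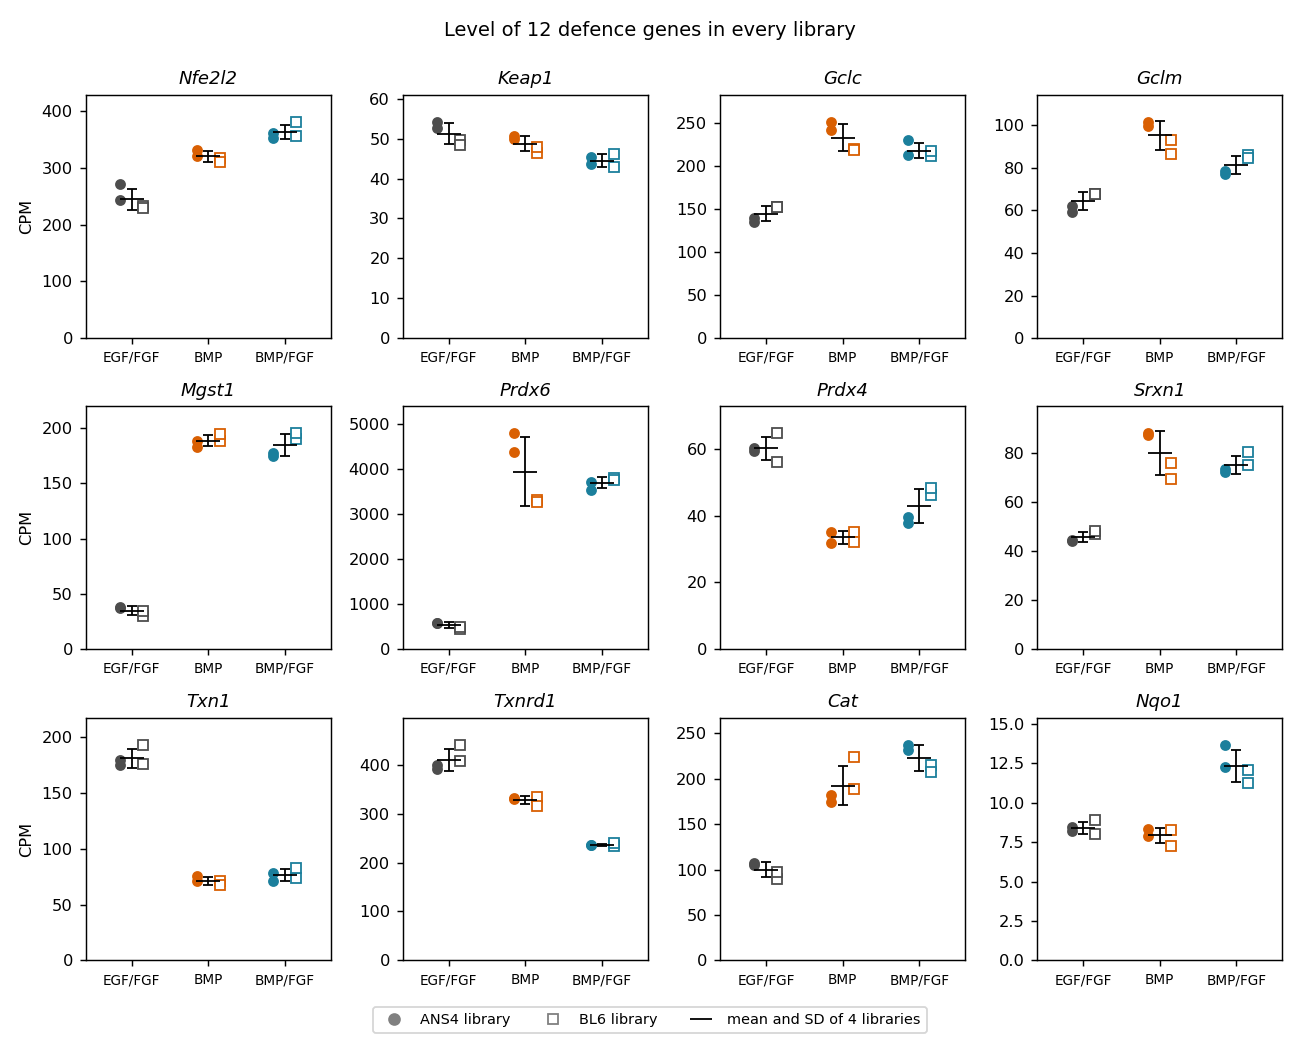
CPM (linear axis from 0) of 12 genes in each of the 12 libraries, with filled circles for ANS4, open squares for BL6 and black bars for the mean and SD of the 4 libraries of a condition. Prdx6 and Mgst1 sit low in all EGF/FGF libraries and high in all others, Txn1 shows the reverse, Txnrd1 steps down from EGF/FGF to BMP to BMP/FGF, and Nqo1 is higher in every BMP/FGF library than in all others.

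Glutathione synthesis and recycling split: the enzyme of the rate-limiting step rose, and the last step of synthesis and the recycling enzyme fell in BMP. Gclc, the catalytic subunit of glutamate-cysteine ligase, was at 139.6, 135, 153 and 152 CPM in EGF/FGF, 251, 242, 219.7 and 219 CPM in BMP and 212, 229.8, 212 and 218 CPM in BMP/FGF. Every library of both quiescence media was above every EGF/FGF library, and the quiescence media overlapped each other. Its log2 fold change was 0.68 ± 0.0648 (SE) in BMP (edgeR FDR = 2.12e-08), 0.59 ± 0.0647 (SE) in BMP/FGF (edgeR FDR = 1.7e-07) and -0.096 ± 0.0642 (SE) between them (edgeR FDR = 0.249). Gclm, the modifier subunit that raises the activity of GCLC, was at 59.2, 62.1, 67.6 and 67.9 CPM in EGF/FGF, 101, 99.8, 93.2 and 86.4 CPM in BMP and 78.5, 77.3, 85.8 and 84.3 CPM in BMP/FGF. It was highest in BMP, lower in BMP/FGF and lowest in EGF/FGF, with no overlap. On the log2 scale it rose by 0.57 ± 0.0679 (SE) in BMP (edgeR FDR = 4.57e-07) and 0.34 ± 0.0681 (SE) in BMP/FGF (edgeR FDR = 0.000167), with -0.23 ± 0.0674 (SE) between them (edgeR FDR = 0.0126), the last not passing within BL6 alone (-0.076, FDR = 0.453). The ratio of Gclc to Gclm CPM was 2.26 ± 0.077 in EGF/FGF, 2.45 ± 0.075 in BMP and 2.68 ± 0.217 in BMP/FGF (SD, n = 4). It is not corrected for transcript length, so only its change between conditions can be read.

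Gss, glutathione synthetase, was at 20.8, 17.8, 20.2 and 19.0 CPM in EGF/FGF, 15.9, 17.4, 15.9 and 16.3 CPM in BMP and 20.5, 16.9, 18.8 and 19.8 CPM in BMP/FGF. BMP lay just under EGF/FGF in every library, and BMP/FGF overlapped both. It fell by 0.25 ± 0.0842 (SE) on the log2 scale in BMP (edgeR FDR = 0.0126), a call lost in ANS4 alone (-0.21, FDR = 0.105), with -0.035 ± 0.0834 (SE) in BMP/FGF against EGF/FGF (edgeR FDR = 0.712) and 0.21 ± 0.0847 (SE) against BMP (edgeR FDR = 0.0537). The last of these passed without ANS4 BMP replicate 2 (FDR = 0.0452) or without ANS4 BMP/FGF replicate 2 (FDR = 0.0241). Gsr, glutathione reductase, which uses NADPH to restore the reduced form, was at 103, 101, 105 and 100.2 CPM in EGF/FGF, 69.2, 74.3, 60.5 and 60.7 CPM in BMP and 74.6, 75.9, 79.2 and 83.0 CPM in BMP/FGF. All 8 libraries of the quiescence media were below EGF/FGF, with BMP the lowest and no overlap between conditions. The log2 fold change was -0.63 ± 0.0684 (SE) in BMP (edgeR FDR = 1.33e-07), -0.39 ± 0.0679 (SE) in BMP/FGF (edgeR FDR = 4.76e-05) and 0.24 ± 0.0688 (SE) between them (edgeR FDR = 0.00919), and the last was not called without BL6 BMP/FGF replicate 2 (0.19, FDR = 0.053) or within ANS4 alone (0.070, FDR = 0.404).

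The cytosolic glutathione transferases held 20 genes, of which 15 were tested. In BMP 3 rose (20%, beside 40.8% of all tested genes) and 8 fell (53.3%, beside 38.8%), and in BMP/FGF 7 rose (46.7%, beside 40.9%) and 5 fell (33.3%, beside 38.0%). Against BMP, 8 were higher in BMP/FGF (53.3%, beside 20.1%) and 1 was lower (6.67%, beside 21.3%). The mu class accounted for much of this. Its 7 genes, Gstm1 to Gstm7, lie together on chromosome 3 between 107895821 and 108044894 (GRCm38). They encode enzymes that join glutathione to electrophiles. Gstm1 was at 791, 772, 614 and 594 CPM in EGF/FGF, 577, 598, 473 and 622 CPM in BMP and 1670.1, 1612, 1667 and 1596 CPM in BMP/FGF. BMP/FGF stood far above all other libraries, and BMP overlapped EGF/FGF. The log2 fold change was -0.28 ± 0.0849 (SE) in BMP (edgeR FDR = 0.00585), 1.25 ± 0.0859 (SE) in BMP/FGF (edgeR FDR = 2.75e-10) and 1.53 ± 0.0865 (SE) between them (edgeR FDR = 9.81e-10), a 2.89-fold step when FGF2 was added to BMP4. Within BL6 alone the fall in BMP did not pass (-0.16, FDR = 0.162). Gstm1 made up 53.8% ± 3.30 of the CPM of the cytosolic transferases in EGF/FGF, 53.3% ± 1.89 in BMP and 73.4% ± 0.28 in BMP/FGF.

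The other 5 tested mu genes were lower in BMP or missed the test there, and BMP/FGF exceeded BMP for all 5. Gstm6 was at 1.66, 2.48, 1.72 and 1.5 CPM in EGF/FGF, 0.331, 0.554, 0.311 and 0.626 CPM in BMP and 3.29, 2.43, 2.91 and 2.18 CPM in BMP/FGF. BMP lay below both other conditions in every library, and BMP/FGF overlapped EGF/FGF through ANS4 EGF/FGF replicate 2. The log2 fold change was -1.99 ± 0.28 (SE) in BMP (edgeR FDR = 3.65e-06), 2.55 ± 0.267 (SE) in BMP/FGF against BMP (edgeR FDR = 9.73e-07) and 0.56 ± 0.208 (SE) in BMP/FGF against EGF/FGF (edgeR FDR = 0.0214). The last call was lost, with FDR from 0.0661 to 0.0853, without ANS4 EGF/FGF replicate 1, BL6 EGF/FGF replicate 2, ANS4 BMP/FGF replicate 1 or BL6 BMP/FGF replicate 1. Gstm7 was at 37.6, 36.9, 43.2 and 41.1 CPM in EGF/FGF, 11.4, 11.3, 10.3 and 13.9 CPM in BMP and 17.5, 16.8, 16.1 and 14.7 CPM in BMP/FGF. It was the mu gene that stayed well under EGF/FGF in both media, with no overlap between conditions. Its log2 fold change was -1.76 ± 0.0947 (SE) in BMP (edgeR FDR = 8.44e-12), -1.29 ± 0.0919 (SE) in BMP/FGF (edgeR FDR = 4.69e-10) and 0.48 ± 0.0993 (SE) between them (edgeR FDR = 0.001), the last not passing within BL6 alone (0.35, FDR = 0.0585). Gstm2 fell by 1.21 in BMP (edgeR FDR = 2.29e-06) and was 1.21 higher in BMP/FGF than in BMP (edgeR FDR = 1.9e-05). Gstm5, which shares no 31-base word with another gene of the annotation, changed by -0.15 ± 0.0898 (SE) in BMP (edgeR FDR = 0.142), 0.70 ± 0.0894 (SE) in BMP/FGF (edgeR FDR = 1.18e-06) and 0.85 ± 0.0897 (SE) between them (edgeR FDR = 1.15e-06). Gstm4 was 0.73 ± 0.246 (SE) higher in BMP/FGF than in BMP (edgeR FDR = 0.024), a call lost at FDR from 0.0668 to 0.106 without ANS4 BMP replicate 2, BL6 BMP replicate 2, ANS4 BMP/FGF replicate 2 or BL6 BMP/FGF replicate 1.

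Reads of some mu genes may be split between copies. Of the 31-base words in the annotated transcripts, 30.4% of those of Gstm1 occur in another gene (23.8% in the pseudogene Gstm2-ps1), 17.4% of those of Gstm2, 15.0% of those of Gstm6, 3.31% of those of Gstm4 and 2.62% of those of Gstm7, so the division of reads among Gstm1, Gstm2 and Gstm6 is uncertain. Summed over the mu genes, the level was 846 ± 119 CPM in EGF/FGF, 678 ± 73.7 CPM in BMP and 1831 ± 39.5 CPM in BMP/FGF (SD, n = 4). The sum had a log2 fold change of -0.31 in BMP (edgeR FDR = 0.00167), 1.12 in BMP/FGF (edgeR FDR = 5.55e-10) and 1.44 between them (edgeR FDR = 1.1e-09).

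**Figure D3:**
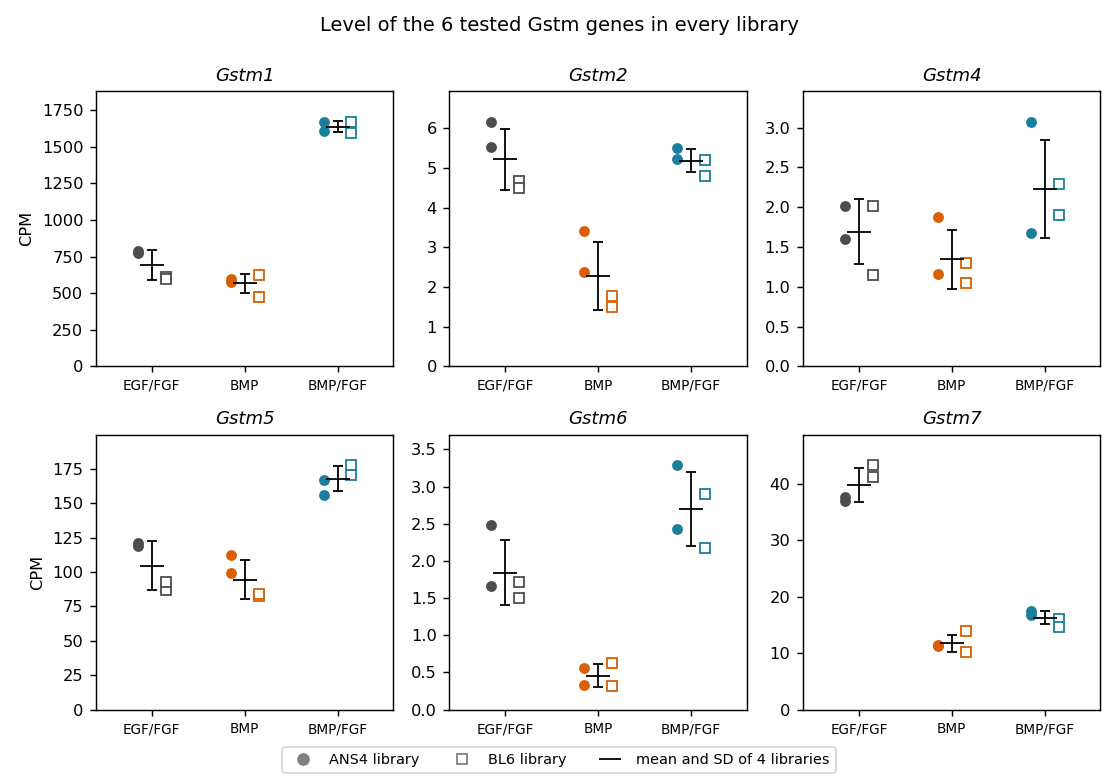
CPM (linear axes from 0, each with its own range) of the 6 tested Gstm genes in every library, drawn as in the plot of 12 genes. In every panel except that of Gstm4 the BMP/FGF libraries all lie above the BMP libraries, and only Gstm7 remains below the EGF/FGF level in both media.

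Outside the mu class the transferases went separate ways. Gsto2, an omega transferase whose family reduces dehydroascorbate, was at 1.24, 1.71, 0.885 and 1.14 CPM in EGF/FGF, 3.09, 2.44, 2.80 and 2.66 CPM in BMP and 6.25, 4.80, 4.75 and 3.74 CPM in BMP/FGF. The conditions did not overlap and rose in that order, at a low level. The log2 fold change was 1.15 ± 0.201 (SE) in BMP (edgeR FDR = 4.32e-05), 1.97 ± 0.188 (SE) in BMP/FGF (edgeR FDR = 2.5e-08) and 0.82 ± 0.167 (SE) between them (edgeR FDR = 0.000839). Its neighbour on chromosome 19, Gsto1, was at 63.3, 69.1, 70.3 and 65.9 CPM in EGF/FGF, 68.4, 60.4, 64.9 and 72.0 CPM in BMP and 57.6, 50.3, 52.9 and 52.5 CPM in BMP/FGF. Only BMP/FGF stood apart, below every other library. Gsto1 changed by -0.016 ± 0.0669 (SE) in BMP (edgeR FDR = 0.83), fell by 0.33 in BMP/FGF against EGF/FGF (edgeR FDR = 0.00022) and by 0.32 against BMP (edgeR FDR = 0.00124). Gsta1, an alpha transferase, had 0, 2, 2 and 0 counts in EGF/FGF, 0, 0, 16 and 7 counts in BMP and 34, 10, 13 and 19 counts in BMP/FGF. Taking 3 counts in a library as the floor, its mean in BMP/FGF exceeded EGF/FGF at least 6.64-fold (edgeR FDR = 0.000346). In BMP only the BL6 libraries held counts, and the difference from EGF/FGF did not pass (edgeR FDR = 0.0649). That difference passed without ANS4 BMP replicate 1 (FDR = 0.0245), ANS4 BMP replicate 2 (0.0248) or ANS4 BMP/FGF replicate 1 (0.0313). The call between BMP/FGF and BMP (edgeR FDR = 0.0309) was lost at FDR from 0.0625 to 0.126 without either ANS4 BMP library, BL6 BMP replicate 2 or ANS4 BMP/FGF replicate 1, and by DESeq2 (0.0985) or with no filter (0.0569). As 92.2% of the words of Gsta1 also occur in other genes, its reads may belong to a copy.

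Gsta4, known for its action on the lipid peroxidation product 4-hydroxynonenal, rose by 0.55 ± 0.0797 (SE) in BMP (edgeR FDR = 5.12e-06) and 0.65 ± 0.0797 (SE) in BMP/FGF (edgeR FDR = 7.24e-07). Gstk1, the kappa transferase of mitochondria and peroxisomes, rose by 1.06 ± 0.171 (SE) (edgeR FDR = 1.86e-05) and 1.29 ± 0.169 (SE) (edgeR FDR = 1.61e-06). The pi and theta classes fell instead. Gstp1 fell by 0.66 in BMP (edgeR FDR = 8.7e-07) and 0.56 in BMP/FGF (edgeR FDR = 6.79e-06), and Gstp2 by 0.86 (edgeR FDR = 3.55e-05) and 0.87 (edgeR FDR = 3.4e-05). Most words of each pi gene are shared (57.8% for Gstp1 and 56.9% for Gstp2), so their split is uncertain, while their sum fell by 0.67 (edgeR FDR = 6.82e-07) and 0.57 (edgeR FDR = 5.09e-06). Gstt1 fell by 0.76 (edgeR FDR = 0.000175) and 0.82 (edgeR FDR = 9.71e-05). Gstt3, a sparse gene, fell by 1.24 in BMP (edgeR FDR = 0.0222), a call lost without BL6 EGF/FGF replicate 1 (FDR = 0.102), ANS4 BMP replicate 1 (0.0699) or BL6 BMP replicate 1 (0.0832).

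Among the membrane transferases, Mgst1 showed a large and even rise. Mgst1 (chromosome 6), the microsomal enzyme that also reduces lipid peroxides, was at 37.2, 38.3, 30.1 and 34.7 CPM in EGF/FGF, 188, 183, 188 and 195 CPM in BMP and 178, 175, 190.5 and 195 CPM in BMP/FGF. All libraries of both quiescence media lay far above EGF/FGF and overlapped each other. Mgst1 rose by 2.43 ± 0.0737 (SE) in BMP (edgeR FDR = 4.65e-15) and 2.40 ± 0.0737 (SE) in BMP/FGF (edgeR FDR = 5.38e-15) on the log2 scale, with -0.031 ± 0.0678 (SE) between them (edgeR FDR = 0.747), which is 5.38-fold and 5.27-fold against EGF/FGF. None of its words is shared with another gene. Mgst3 rose by 0.58 ± 0.164 (SE) (edgeR FDR = 0.00361) and 0.61 ± 0.164 (SE) (edgeR FDR = 0.00259), the first not passing within ANS4 alone (0.37, FDR = 0.108).

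The glutathione peroxidases changed less, with 2 of 5 tested genes higher (40.0%, beside 40.8% of all tested genes) and 1 lower (20%, beside 38.8%) in BMP, 2 higher in BMP/FGF (beside 40.9%), and 2 higher in BMP/FGF than in BMP (beside 20.1%). Gpx4, which reduces peroxidised phospholipids and guards against ferroptosis, was at 257, 311, 229 and 238 CPM in EGF/FGF, 301, 339, 251 and 301 CPM in BMP and 334, 335, 319.5 and 310.4 CPM in BMP/FGF. Every pair of conditions overlapped, BMP/FGF and EGF/FGF only through ANS4 EGF/FGF replicate 2. Its log2 fold change was 0.20 ± 0.0746 (SE) in BMP (edgeR FDR = 0.0183) and 0.33 ± 0.0746 (SE) in BMP/FGF (edgeR FDR = 0.000548). The call in BMP was lost at FDR from 0.0631 to 0.0723 without ANS4 EGF/FGF replicate 1, BL6 EGF/FGF replicate 1, ANS4 BMP replicate 2 or BL6 BMP replicate 2, and 0.0607 with no term for the line, and 55.5% of the words of Gpx4 are shared, nearly all with the pseudogene Gpx4-ps2. Gpx8, a peroxidase of the endoplasmic reticulum, was at 67.8, 79.0, 73.8 and 74.0 CPM in EGF/FGF, 110.2, 107, 92.4 and 85.2 CPM in BMP and 112, 105, 104 and 102 CPM in BMP/FGF. All libraries of the quiescence media lay above EGF/FGF. It rose by 0.42 ± 0.0702 (SE) (edgeR FDR = 2.82e-05) and 0.52 ± 0.0701 (SE) (edgeR FDR = 2.23e-06).

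Gpx7, the other peroxidase of the endoplasmic reticulum, was low, at 1.66, 1.76, 1.56 and 1.70 CPM in EGF/FGF, 0.773, 0.775, 0.363 and 0.626 CPM in BMP and 1.72, 1.08, 1.23 and 0.838 CPM in BMP/FGF. BMP lay below both other conditions, and BMP/FGF overlapped EGF/FGF. It fell by 1.40 in BMP (edgeR FDR = 6.71e-05) and was 0.94 ± 0.27 (SE) higher in BMP/FGF than in BMP (edgeR FDR = 0.00988), while BMP/FGF against EGF/FGF gave -0.46 ± 0.227 (SE) (edgeR FDR = 0.0722). Without ANS4 BMP/FGF replicate 1 the second of these was lost (0.76, FDR = 0.0517) and the third passed (-0.65, FDR = 0.0272). Gpx1 was 0.17 higher in BMP/FGF than in BMP (edgeR FDR = 0.0492), a call lost in 9 of the 12 fits that left out 1 library, at FDR from 0.0548 to 0.206 (without ANS4 EGF/FGF replicate 1, either BL6 EGF/FGF library, ANS4 BMP replicate 1, either BL6 BMP library, ANS4 BMP/FGF replicate 1 or either BL6 BMP/FGF library) and under DESeq2, limma and each other scaling run. Gpx3, a secreted peroxidase, did not pass in any comparison, though BMP/FGF against BMP passed without BL6 BMP replicate 2 (0.28, FDR = 0.0274).

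Peroxiredoxins remove hydrogen peroxide with a reactive cysteine, and SRXN1 rescues some of them, not all, once that cysteine is over-oxidised. Of these 8 genes 5 rose (62.5%, beside 40.8% of all tested genes) and 1 fell (12.5%, beside 38.8%) in BMP, and 6 rose (75.0%, beside 40.9%) and 1 fell (12.5%, beside 38.0%) in BMP/FGF. Prdx6 (chr1:161240112-161251219, minus strand), the member that also acts on phospholipids, was at 588, 582, 457 and 485 CPM in EGF/FGF, 4791, 4379, 3320.3 and 3264 CPM in BMP and 3533, 3703, 3801 and 3761 CPM in BMP/FGF. All libraries of the quiescence media lay far above EGF/FGF, and in BMP the ANS4 libraries lay above and the BL6 libraries below every BMP/FGF library. Prdx6 rose by 2.89 ± 0.0956 (SE) in BMP (edgeR FDR = 1.31e-14) and 2.82 ± 0.0954 (SE) in BMP/FGF (edgeR FDR = 1.74e-14) on the log2 scale, with -0.068 ± 0.0891 (SE) between them (edgeR FDR = 0.573), which is 7.42-fold and 7.08-fold against EGF/FGF. Its copy on chromosome 2, Prdx6b, was at most at 1.06 CPM and its change of 2.44 in BMP (edgeR FDR = 0.00224) and 2.50 in BMP/FGF (edgeR FDR = 0.00177) cannot be told apart from reads of Prdx6, with which it shares 3.22% of its words.

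Prdx4, the peroxiredoxin of the endoplasmic reticulum, fell against this direction. It was at 59.3, 60.4, 56.2 and 64.6 CPM in EGF/FGF, 35.2, 31.7, 35.3 and 32.1 CPM in BMP and 39.6, 37.9, 46.1 and 48.4 CPM in BMP/FGF. The conditions did not overlap, with BMP lowest. Prdx4 fell by 0.84 in BMP (edgeR FDR = 1.12e-08) and 0.49 in BMP/FGF (edgeR FDR = 1.08e-05), and was 0.35 ± 0.0769 (SE) higher in BMP/FGF than in BMP (edgeR FDR = 0.00143). Srxn1, sulfiredoxin, was at 43.8, 44.4, 46.9 and 48.2 CPM in EGF/FGF, 87.8, 87.0, 69.3 and 75.6 CPM in BMP and 73.3, 72.0, 80.1 and 74.9 CPM in BMP/FGF. Both quiescence media lay above EGF/FGF and overlapped each other. It rose by 0.80 ± 0.0762 (SE) (edgeR FDR = 2.31e-08) and 0.71 ± 0.0762 (SE) (edgeR FDR = 1.21e-07), with -0.089 ± 0.0747 (SE) between the media (edgeR FDR = 0.364). Prdx5 rose by 0.55 (edgeR FDR = 1.31e-06) and 0.50 (edgeR FDR = 4.55e-06), and Prdx2 by 0.19 (edgeR FDR = 0.00689) and 0.20 (edgeR FDR = 0.0059). Prdx1, the abundant cytosolic member, changed by 0.12 ± 0.0861 (SE) in BMP (edgeR FDR = 0.197) and rose by 0.27 ± 0.086 (SE) in BMP/FGF (edgeR FDR = 0.00787). The first passed without BL6 BMP replicate 1 (0.20, FDR = 0.0432) and within ANS4 alone (0.31, FDR = 0.000193). In BL6 the Prdx1 change in BMP was -0.080 in the fit with the interaction of line and condition. The rise of Prdx1 in BMP/FGF was lost without BL6 BMP/FGF replicate 2 (0.20, FDR = 0.0543). Prdx3, the mitochondrial member, did not pass in any comparison.

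The thioredoxin system fell at its main cytosolic pair. Txn1 (chromosome 4), the cytosolic thioredoxin that reduces peroxiredoxins and ribonucleotide reductase, was at 179.8, 175, 176 and 193 CPM in EGF/FGF, 70.8, 75.3, 70.8 and 67.2 CPM in BMP and 71.2, 78.4, 73.8 and 82.9 CPM in BMP/FGF. All 8 libraries of the quiescence media lay far below EGF/FGF and overlapped each other. Txn1 fell by 1.35 ± 0.0635 (SE) on the log2 scale in BMP (edgeR FDR = 1.38e-12) and 1.24 ± 0.0633 in BMP/FGF (edgeR FDR = 4.24e-12), with 0.11 ± 0.0639 (SE) between them (edgeR FDR = 0.188). Txnrd1, the reductase that recharges thioredoxin with NADPH and a known NRF2 target, was at 391, 399, 441 and 408 CPM in EGF/FGF, 332, 329.9, 335 and 316 CPM in BMP and 236, 235, 234 and 240.1 CPM in BMP/FGF. The conditions stepped down without overlap. Txnrd1 fell by 0.32 ± 0.0549 (SE) in BMP (edgeR FDR = 3.7e-05) and 0.79 ± 0.0553 in BMP/FGF (edgeR FDR = 3.33e-10), and by 0.47 between them (edgeR FDR = 3.17e-06). The ratio of Txnrd1 to Txn1 CPM was 2.27 ± 0.176 in EGF/FGF, 4.63 ± 0.165 in BMP and 3.09 ± 0.186 in BMP/FGF (SD, n = 4). This ratio is not corrected for transcript length, so only its change between conditions can be read. Per kilobase, Txnrd1 and Txn1 were at 153 and 172 CPM in EGF/FGF, 123 and 67.6 CPM in BMP, and 88.5 and 72.9 CPM in BMP/FGF.

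Txnrd3, a reductase that acts on both thioredoxin and glutathione, was at 12.1, 11.0, 11.0 and 10.8 CPM in EGF/FGF, 21.1, 19.5, 18.7 and 17.7 CPM in BMP and 19.7, 19.3, 21.7 and 19.9 CPM in BMP/FGF. It lay above EGF/FGF in all libraries of both media, opposite to Txnrd1. It rose by 0.78 ± 0.0839 (SE) (edgeR FDR = 1.25e-07) and 0.85 ± 0.0838 (SE) (edgeR FDR = 4.3e-08). Of the mitochondrial pair, Txn2 fell by 0.48 (edgeR FDR = 4.62e-07) and 0.46 (edgeR FDR = 9.27e-07), and Txnrd2 changed by 0.13 ± 0.0847 (SE) (edgeR FDR = 0.163) and rose by 0.32 ± 0.084 (SE) (edgeR FDR = 0.00195). Txnrd2 on the deposited log2 scale gave 0.082 for BMP/FGF (limma FDR = 0.43), so that rise was not called by this other test on other values.

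Catalase rose while the superoxide dismutases changed little. Cat (chromosome 2), the peroxisomal enzyme that splits hydrogen peroxide, was at 105, 108, 90.0 and 97.9 CPM in EGF/FGF, 175, 183, 189 and 224 CPM in BMP and 232, 238, 216 and 207 CPM in BMP/FGF. All libraries of the quiescence media lay above EGF/FGF. It rose by 0.95 ± 0.0805 (SE) in BMP (edgeR FDR = 4.81e-09) and 1.16 ± 0.0805 (SE) in BMP/FGF (edgeR FDR = 3.28e-10). BMP/FGF exceeded BMP by 0.21 ± 0.079 (SE) (edgeR FDR = 0.0411), but the media overlapped at BL6 BMP replicate 2, and the call was lost at FDR from 0.0509 to 0.155 in 7 of 12 fits that left out 1 library (BL6 EGF/FGF replicate 2, either ANS4 BMP library, BL6 BMP replicate 1, either ANS4 BMP/FGF library or BL6 BMP/FGF replicate 1), and with DESeq2 size factors (0.0503), library sizes alone (0.126) or no filter (0.0558).

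Sod1, the cytosolic copper and zinc dismutase, was at 127, 141, 139 and 131 CPM in EGF/FGF, 174, 161, 142 and 117 CPM in BMP and 178, 152, 152 and 159.6 CPM in BMP/FGF. BMP/FGF lay above EGF/FGF, and BMP spread over both. Its log2 fold change was 0.13 ± 0.0854 (SE) in BMP (edgeR FDR = 0.156) and 0.25 ± 0.0852 (SE) in BMP/FGF (edgeR FDR = 0.0122). The first passed without BL6 BMP replicate 2 (0.23, FDR = 0.00861) and within ANS4 alone (0.32, FDR = 0.00137). In BL6 the Sod1 change in BMP was -0.061 in the fit with the interaction of line and condition. The rise in BMP/FGF was lost at FDR from 0.0538 to 0.0604 without ANS4 EGF/FGF replicate 1, ANS4 BMP/FGF replicate 1 or BL6 BMP/FGF replicate 2. Within BL6 alone it was lost as well (0.19, FDR = 0.0725). Of the words of Sod1, 35.4% are shared with other genes. Sod2, the mitochondrial manganese dismutase, was at 114, 128, 121 and 117 CPM in EGF/FGF, 133, 137, 110.1 and 109 CPM in BMP and 113, 118, 118 and 124 CPM in BMP/FGF. The conditions overlapped throughout, and its log2 fold change against EGF/FGF was 0.023 ± 0.0704 (SE) in BMP (edgeR FDR = 0.776) and -0.023 ± 0.0704 (SE) in BMP/FGF (edgeR FDR = 0.769). Within ANS4 alone Sod2 passed in BMP (0.15, FDR = 0.0416) and in BMP/FGF against BMP (-0.22, FDR = 0.0135). In BL6 these changes were -0.11 and 0.14 in the fit with the interaction. Sod3, the secreted dismutase, was at 3.57, 4.75, 4.74 and 3.72 CPM in EGF/FGF, 6.52, 5.48, 4.10 and 5.11 CPM in BMP and 5.44, 5.28, 5.48 and 5.31 CPM in BMP/FGF. BMP/FGF lay above EGF/FGF and BMP overlapped both. Its change was 0.33 ± 0.146 (SE) in BMP (edgeR FDR = 0.0471) and 0.36 ± 0.147 (SE) in BMP/FGF (edgeR FDR = 0.0337), near the threshold. The call in BMP was lost at FDR from 0.0545 to 0.193 without ANS4 EGF/FGF replicate 1, BL6 EGF/FGF replicate 2, either ANS4 BMP library, BL6 BMP replicate 2 or any BMP/FGF library, and that in BMP/FGF at FDR from 0.0547 to 0.131 without ANS4 EGF/FGF replicate 1, BL6 EGF/FGF replicate 2, ANS4 BMP/FGF replicate 1 or either BL6 BMP/FGF library. By DESeq2 neither passed (FDR = 0.0682 in BMP and 0.0569 in BMP/FGF).

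Of the classical NRF2 targets, Hmox1 rose in both media and Nqo1 passed the test in BMP/FGF alone. Nqo1, a quinone reductase often read as a gauge of NRF2 activity, was at 8.44, 8.22, 8.01 and 8.89 CPM in EGF/FGF, 7.90, 8.30, 7.26 and 8.29 CPM in BMP and 13.7, 12.2, 11.2 and 12.1 CPM in BMP/FGF. BMP/FGF lay above every other library, and BMP overlapped EGF/FGF. Its log2 fold change was -0.081 ± 0.0974 (SE) in BMP (edgeR FDR = 0.454), 0.55 ± 0.0938 (SE) in BMP/FGF (edgeR FDR = 3.47e-05) and 0.63 ± 0.0946 (SE) between them (edgeR FDR = 4.74e-05). Hmox1, heme oxygenase, was at 71.5, 67.2, 61.9 and 63.4 CPM in EGF/FGF, 100.4, 106, 84.0 and 104 CPM in BMP and 85.7, 75.9, 85.5 and 83.7 CPM in BMP/FGF. Both media lay above EGF/FGF and overlapped each other at BL6 BMP replicate 1. It rose by 0.58 ± 0.0736 (SE) (edgeR FDR = 1.02e-06) and 0.33 ± 0.0739 (SE) (edgeR FDR = 0.0006) and was lower in BMP/FGF than in BMP by a log2 change of -0.25 ± 0.0732 (SE) (edgeR FDR = 0.0103), which did not pass within BL6 alone (-0.15, FDR = 0.22). Set side by side in BMP/FGF against EGF/FGF, the known targets Gclc, Gclm, Srxn1, Nqo1 and Hmox1 rose by 0.33 to 0.71 on the log2 scale, while Txnrd1 and Gsr fell, so they did not move as a block.

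The change on adding FGF2 to BMP4 differed between the lines for 11 of the 47 tested genes (23.4%, beside 13.5% of all tested genes), by the interaction of line and condition in edgeR. Gsta1 was among them, with 0 counts in both ANS4 BMP libraries, so its difference has no size that can be read. Of the other 10, 9 had the more positive change in BL6. The direction of such differences over all tested genes was not counted, so this side cannot be called particular to the defence genes. Prdx6 fell by 0.34 in ANS4 and rose by 0.20 in BL6, a difference of 0.54 ± 0.0808 (SE, interaction, edgeR FDR = 0.000443). Prdx1 changed by -0.11 in ANS4 and 0.41 in BL6, a difference of 0.52 ± 0.0925 (edgeR FDR = 0.00145), and Srxn1 by -0.27 and 0.098 (difference 0.36, edgeR FDR = 0.0176). For Prdx6 the lines stood further apart in BMP (4791 and 4379 CPM in ANS4, 3320.3 and 3264 CPM in BL6) than in BMP/FGF (3533 and 3703 CPM and 3801 and 3761 CPM). Gstm5 rose by 0.61 in ANS4 and 1.07 in BL6 (difference 0.45, edgeR FDR = 0.00574), Gsta4 changed by -0.12 and 0.32 (0.45, edgeR FDR = 0.00642) and Gstk1 by -0.23 and 0.72 (0.94, edgeR FDR = 0.00559). Cat was the gene with the more positive change in ANS4, 0.39 against 0.035 (edgeR FDR = 0.0305). The count of 11 was 6 without ANS4 BMP replicate 2 or ANS4 BMP/FGF replicate 1, and 7 without ANS4 BMP/FGF replicate 2 or either BL6 BMP/FGF library.

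**Figure D4:**
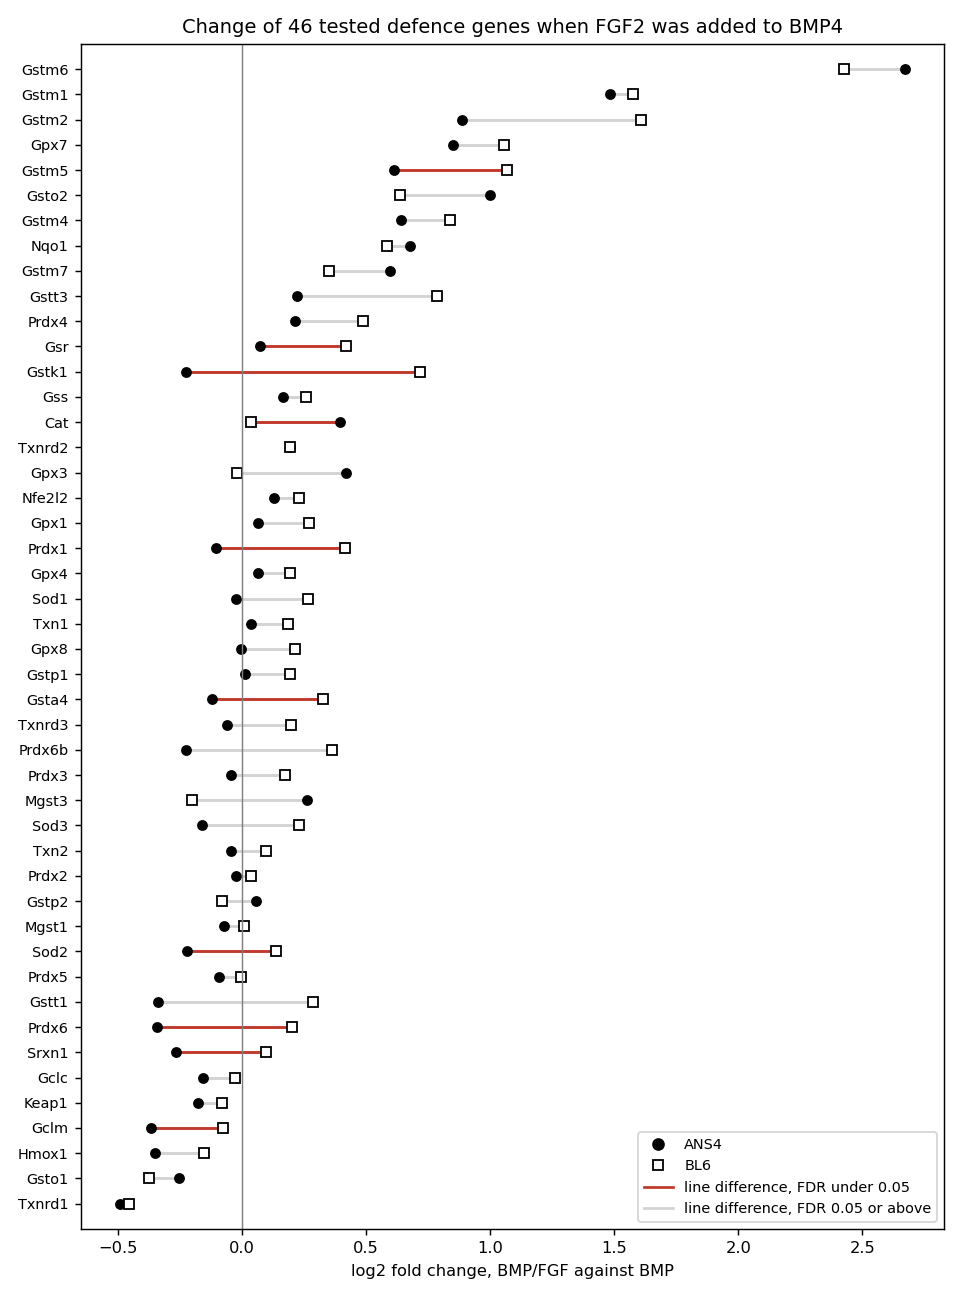
Log2 fold change of BMP/FGF against BMP in ANS4 (filled circles) and BL6 (open squares) for 46 tested genes, ordered by the change over both lines and without Gsta1, whose ANS4 BMP libraries held no counts. Red lines join the 10 genes whose change differed between the lines. By the change over both lines Gstm6, Gstm1 and Gstm2 lie at the top and Txnrd1 at the bottom. In ANS4 the change of Gsto2 (0.997) was above that of Gstm2 (0.884).

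In BMP against EGF/FGF the lines differed for 5 genes (10.6%, beside 9.02% of all tested genes), a share near the background. Gclc rose by 0.85 in ANS4 and 0.53 in BL6 (edgeR FDR = 0.0276), Gclm by 0.73 and 0.41 (edgeR FDR = 0.0365) and Srxn1 by 0.99 and 0.61 (edgeR FDR = 0.0237). These 3 genes rose in both lines and more in ANS4. Prdx1 and Cat were the others. The count was 0 without ANS4 EGF/FGF replicate 1, 2 without ANS4 EGF/FGF replicate 2, 1 without either BL6 EGF/FGF library or either ANS4 BMP library, 3 without ANS4 BMP/FGF replicate 2 or either BL6 BMP/FGF library, and 9 without BL6 BMP replicate 1. In BMP/FGF against EGF/FGF the lines differed for 2 genes (4.26%, beside 4.98%), Gstm5 (0.43 in ANS4 and 0.96 in BL6, edgeR FDR = 0.00502) and Prdx6 (2.63 and 3.00, edgeR FDR = 0.0135). That count was 1 without ANS4 EGF/FGF replicate 1, BL6 EGF/FGF replicate 1 or any BMP/FGF library, and 4 without either BL6 BMP library.

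Around these genes, 58 others of the same pathways were listed, and 53 of them were tested. In BMP 24 rose (45.3%, beside 40.8% of all tested genes) and 21 fell (39.6%, beside 38.8%), shares near the background. In BMP/FGF 27 rose (50.9%, beside 40.9%) and 17 fell (32.1%, beside 38.0%). Against BMP, 11 were higher in BMP/FGF (20.8%, beside 20.1%) and 7 lower (13.2%, beside 21.3%). The smaller lists that follow hold 6 to 12 tested genes, and their counts in BMP stand against the same 40.8% and 38.8%. Of 11 tested regulators and partners of NRF2, 7 rose and 3 fell in BMP. Sqstm1, the autophagy receptor that binds KEAP1, rose by 1.18 in BMP and 1.14 in BMP/FGF, and Bach1, a repressor at the same DNA motif, by 0.59 and 0.55. Of the small MAF genes, which encode partners of NRF2, Mafk rose by 1.02 and 0.84, while Mafg fell by 0.34 and 0.60 and Maff by 0.68 and 0.33. Among 12 tested genes of cystine, glutamate and glutathione turnover, 6 rose and 3 fell in BMP. Slc7a11, the cystine carrier, rose by 1.10 and 0.93 and its partner Slc3a2 by 1.37 and 0.95. None of the 6 NADPH supply genes rose against EGF/FGF, and 4 fell in BMP (Me1 by 0.80, Tkt by 0.51, Idh1 by 0.40 and Pgd by 0.31). In BMP/FGF 3 fell (50%, beside 38.0%). Against BMP, 2 were higher in BMP/FGF (33.3%, beside 20.1%) and 2 lower (33.3%, beside 21.3%). The mean levels of Me1 and Idh1 were 366 and 391 CPM in BMP/FGF and 383 CPM each in EGF/FGF. Of 12 glutaredoxin, methionine sulfoxide reductase and sestrin genes 6 rose and 6 fell in BMP. Txnip, whose protein binds and inhibits thioredoxin, rose by 3.09 in BMP and 3.25 in BMP/FGF. Of the 12 tested genes of iron, heme and quinone handling, 5 rose and 5 fell in BMP, with Fth1, the ferritin heavy chain, up by 1.85 in both media and Akr1b3, aldose reductase, down by 1.43 and 1.25. Each log2 change named here for a gene passed at an FDR under 0.05 in the same edgeR fit.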

How the data were processed

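RNA-seq of 12 libraries was analysed from the processed tables. Per the labels and methods, the authors trimmed reads with Trim Galore 0.5.0, quantified them against the mm10 transcriptome with kallisto 0.44.0, which shares out reads that fit several transcripts, and deposited estimated counts per gene as whole numbers, which were used as they stand. A second deposited table holds log2 values, the regularised logarithm of DESeq2 1.27.32, and served as an alternative. The annotation release and the use of strand are not given in the sources used here. Libraries were grouped by line and condition from their titles. Genes passing edgeR's filterByExpr were fitted in edgeR 4.0.16 (R 4.3.3) with TMM scaling, quasi-likelihood tests and terms for condition and line over all 12 libraries, and p-values were adjusted by Benjamini-Hochberg (FDR) over 13312 genes. Line differences were the interaction of line and condition. Alternatives were DESeq2 1.42.0, limma 3.58.1 on the log2 values, other scalings, no filter, no line term, a replicate block, each line alone, the Gsta, Gstm, Gstp and Gstt classes each summed and each library left out. Fits were checked on simulated counts. Per-library values were given for the regulators, synthesis and recycling genes, classical targets, dismutases and catalase, and in each family for the gene of highest level and those of largest rise and fall in each contrast. Members follow from the symbol rule alone, but that rule and the lists were set with earlier results of these data known. Shared sequence was counted in 31-base words of GENCODE transcripts on GRCm38. Counting error alone limits genes of few counts, as 3 counts equal 0.154 to 0.166 CPM. The design text calls the replicates biological without saying how they were grown apart, and p-values measure the spread between these libraries. The values of 1 gene of the related pathways are not reported here, and the pathway counts include it.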

Additional observations from a re-analysis of the deposited data

Results flagged for a closer look

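The change of 12 of the 47 tested defence genes differed between the lines in at least 1 contrast, by the interaction of line and condition in edgeR at an FDR under 0.05. The share of all tested genes called in at least 1 contrast was not counted. By contrast, the share of defence genes was 10.6% in BMP and 4.26% in BMP/FGF against EGF/FGF, and 23.4% between the media. Beside these stood 9.02%, 4.98% and 13.5% of all tested genes. All differences here are the log2 change in BL6 minus that in ANS4. In BMP against EGF/FGF the difference was -0.32 for Gclc, -0.32 for Gclm, -0.39 for Prdx1, -0.38 for Srxn1 and 0.38 for Cat. In BMP/FGF against EGF/FGF it was 0.53 for Gstm5 and 0.38 for Prdx6. In BMP/FGF against BMP it was 0.45 for Gsta4, 0.94 for Gstk1, 0.45 for Gstm5, 0.29 for Gclm, 0.35 for Gsr, 0.52 for Prdx1, 0.54 for Prdx6, 0.36 for Srxn1, -0.36 for Cat and 0.36 for Sod2. Gsta1 gave -6.91 in that contrast, a fitted number that follows from 0 counts in both ANS4 BMP libraries and has no size to read. Of the settings run, 4 of 20 called the Gclm difference between the media and 6 of 20 that in BMP, and 10 of 20 and 8 of 20 called those of Cat, while those of Gstk1, Prdx1 and Prdx6 between the media passed in 20 of 20. The libraries of the lines also differed in marker levels in BMP, where the summed neuron markers ranged from 302 to 610 CPM, and the part of this in the differences was not tested.

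A single library stood apart from the rest of its condition among 84 groups of 4 examined for the named genes. Txnrd3 was at 12.1 CPM in ANS4 EGF/FGF replicate 1 and at 10.8 to 11.0 CPM in the other EGF/FGF libraries. Chance alone would mark about 1 group in 20.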

How the results depend on the processing

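Against EGF/FGF, 28 of the 34 defence genes called in BMP and 31 of the 38 called in BMP/FGF passed under every setting run, and 9 of the 19 called between BMP/FGF and BMP did. No called gene turned direction against EGF/FGF. Between BMP/FGF and BMP, Prdx6 (-0.068, not called) gave 0.20 in BL6 alone (edgeR FDR = 0.0152), as the lines differ. The count higher in BMP/FGF than in BMP was 9 with the Gsta, Gstm, Gstp and Gstt classes each summed, which leaves fewer rows (15 otherwise). In that setting 6 Gstm calls become 1 and Gsta1 joins the far more abundant Gsta4 (FDR of the Gsta sum = 0.283). The count lower was 8 in ANS4 alone and 2 in BL6 alone (4 otherwise). The count of line differences in BMP against EGF/FGF (5) was 3 with no filter, 1 from the libraries of these 2 conditions alone and 0 to 9 with 1 library left out. In BMP/FGF against EGF/FGF (2) it was 4 by DESeq2, 4 from the 2 conditions alone, 1 with these classes summed and 1 to 4 with 1 library left out, and in BMP/FGF against BMP (11) it was 6 to 13. Other than by summing classes, the causes were not tested. The other scalings moved the median of all genes by less than 0.05.

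Replicate numbers did not pair the libraries, since deviations of same-numbered libraries correlated at -0.071 to 0.053. With the numbers as a block in each line, 18 genes rose and 15 fell in BMP, 26 and 11 in BMP/FGF, and 13 were higher and 4 lower in BMP/FGF than in BMP.

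A call was lost on leaving out 1 library for Sod3, Gpx4 and Gstt3 in BMP, for Sod1, Sod3, Gstm6 and Prdx1 in BMP/FGF, and for Cat, Gpx1, Gpx7, Gsr, Gsta1, Gstm4 and Nfe2l2 between the media. Sparse genes such as Gsta1, Prdx6b and, in BMP, Gpx7 rest on few counts, and the division of reads among copies of the mu, pi and alpha transferases is uncertain.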
